A study of Arabidopsis thaliana with 14 samples.

Results

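Nuclear intronic circRNAs of *Arabidopsis thaliana* are circular RNAs whose back-splice junction lies wholly within an intron of a gene on chromosomes 1 to 5. They were taken as the listed circRNAs of the intron type on these chromosomes, without those of the non-coding gene AT1G15405, of which the intron type held 0. The rule gave 207 members of 4859 nuclear circRNAs (4.26%, Wilson 95% interval 3.73 to 4.87) and of 5861 circRNAs in all. They were compared with the 4418 exonic and the 234 intergenic nuclear circRNAs. Intervals throughout cover counting error only, since the list is 1 set of calls and circRNAs of 1 gene are not independent.

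All plants were wild type of the ecotype Columbia-0. The 14 samples, 1 library each, were whole plants at growth stages 1.14, 3.90, 6.50 and 8.00, 5 organs (roots, stems, leaves, flowers and siliques), seedlings at stage 3.90 exposed to 300 mM mannitol as drought stress, to 200 mM NaCl as salt stress or to heat of 38 °C, seedlings of that stage without stress, and 1 mixed sample that pooled RNA of whole plants from 7 stages. RNA was sequenced after ribosomal RNA had been removed and linear RNA digested with the exonuclease RNase R. Junctions with at least 2 back-spliced reads, which are reads that join a downstream end to an upstream start, were listed. The list of all 14 samples gave 1 number of reads for each circRNA, and a list of the mixed sample gave 1217 circRNAs with 8987 reads. Neither list gave a value for each separate sample, so stages, organs and stresses could not be compared.

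An intron is removed by the spliceosome in steps. Its first base, usually the G of a GT, is first joined to an adenosine near the other end of the intron, the branch point, which makes a loop with a short tail called a lariat. The intron's last bases, usually AG, are then cut from the next exon. Lariats are normally opened by a debranching enzyme and degraded, and in human cells some escape this and persist as circular intronic RNAs that lack the tail.

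The junctions of the 5 members with the most reads show the letters that recur at the ends. Each sequence holds the last 30 and then the first 30 bases of the circRNA on its listed strand, read from the TAIR10.1 assembly of RefSeq. Capitals mark the last 5 and the first 6 bases.
Ath_circ_FC2350: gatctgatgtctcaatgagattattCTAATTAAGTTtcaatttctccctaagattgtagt
Ath_circ_FC0916: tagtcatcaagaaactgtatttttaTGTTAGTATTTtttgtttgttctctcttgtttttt
Ath_circ_FC0849: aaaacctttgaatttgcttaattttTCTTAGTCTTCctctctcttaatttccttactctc
Ath_circ_FC2541: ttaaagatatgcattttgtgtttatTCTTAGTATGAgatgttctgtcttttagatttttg
Ath_circ_FC3947: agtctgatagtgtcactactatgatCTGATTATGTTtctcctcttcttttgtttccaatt
The first lies at chr3:19506134-19506488 on the plus strand in intron 3 of UBQ1 (AT3G52590), which encodes ubiquitin fused to a ribosomal protein. The second lies at chr1:25694255-25694597 on the plus strand in intron 3 of AT1G68490, annotated as a translocase subunit seca. The third lies at chr1:22786347-22786668 on the minus strand in intron 1 of AT1G61690, annotated as a phosphoinositide binding protein. The fourth lies at chr4:1939927-1940461 on the plus strand in intron 3 of MEE51 (AT4G04040), a member of the phosphofructokinase family, which works in sugar metabolism. The fifth lies at chr5:25881637-25882003 on the plus strand in intron 1 of CESA6 (AT5G64740), a cellulose synthase of the primary cell wall. All 5 introns lie between coding exons.

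The same ends in their introns are shown for 3 of these members, from 20 bases before the listed 3′ end through the last base of the intron. Capitals mark the last 5 bases of the circRNA and the AG that ends the intron, and the lower-case stretch between them is left outside the circRNA.
Ath_circ_FC2350: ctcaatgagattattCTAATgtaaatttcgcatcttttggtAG
Ath_circ_FC0916: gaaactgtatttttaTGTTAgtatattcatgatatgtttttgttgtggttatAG
Ath_circ_FC0849: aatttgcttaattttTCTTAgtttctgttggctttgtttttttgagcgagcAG
The stretch outside, the final AG included, was 23 nt in UBQ1, 34 nt in AT1G68490 and 33 nt in AT1G61690. In all 3 the circRNA stopped directly before a GT, as every listed nuclear circRNA did.

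The 5′ end of 151 of the 207 intronic circRNAs (72.9%, 66.5 to 78.5) was exactly the first base of an annotated intron on the listed strand. The same held for 18 of 4418 exonic circRNAs (0.407%, 0.258 to 0.643), 6 of 234 intergenic ones (2.56%, 1.18 to 5.48) and 3.60% of all nuclear circRNAs. Another 26 members began at the second base of an intron, which made 177 of 207 (85.5%, 80.1 to 89.7) at the first or second base, against 20 exonic circRNAs (0.453%). The listed type already says whether a circRNA lies in an intron, so the low exonic and intergenic shares are largely set by the choice of members and are given as a description. The result is where within its intron a member began. Outside the list of the mixed sample the 170 of these members carried 1655 of 1831 reads of intronic circRNAs (90.4%), and within it the other 7 carried 35 of 69. The other members fell into 16 that lay on the strand of the gene but began elsewhere and 14 listed on the opposite strand. These classes were chosen after the positions had been seen.

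The members of the first class began with the intron's own first letters, GT in 148 of 151 and GC in 3. The calling looked for AG before the start and GT after the end of a circRNA, and all 207 intronic, 4418 exonic and 234 intergenic circRNAs had both, so these flanks describe the calling. For a circRNA that starts at the first intron base, the AG is the end of the upstream exon, and 51.8% of the 136308 annotated nuclear introns follow an exon that ends in AG. For one that starts at the second base, the A is the last exon base and the G the first intron base, as in UBQ1 and CESA6, and 9.67% of annotated introns follow an exon that ends in A and begin with GT. An intron with other letters at this place could not be listed, on the strand of the gene, as a circRNA that begins there.

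The 3′ ends of these 177 members lay a short way before the end of the intron. The stretch left outside had a median of 27 nt (25 to 28), with quartiles of 23 and 31 nt and a range of 0 to 171 nt. It was 15 to 50 nt long in 170 of 177 (96.0%, 92.1 to 98.1) and 19 to 37 nt long in 149 (84.2%), both windows being chosen after the values had been seen. The median was 27 nt (26 to 29) for the 151 members of the first class and 25 nt (23 to 26) for the 26 of the second. Across the 177 the length left outside had almost no relation to the length of the intron (Spearman's rho 0.0533, Pearson's r 0.0589, a description over introns).

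**Figure D1:**
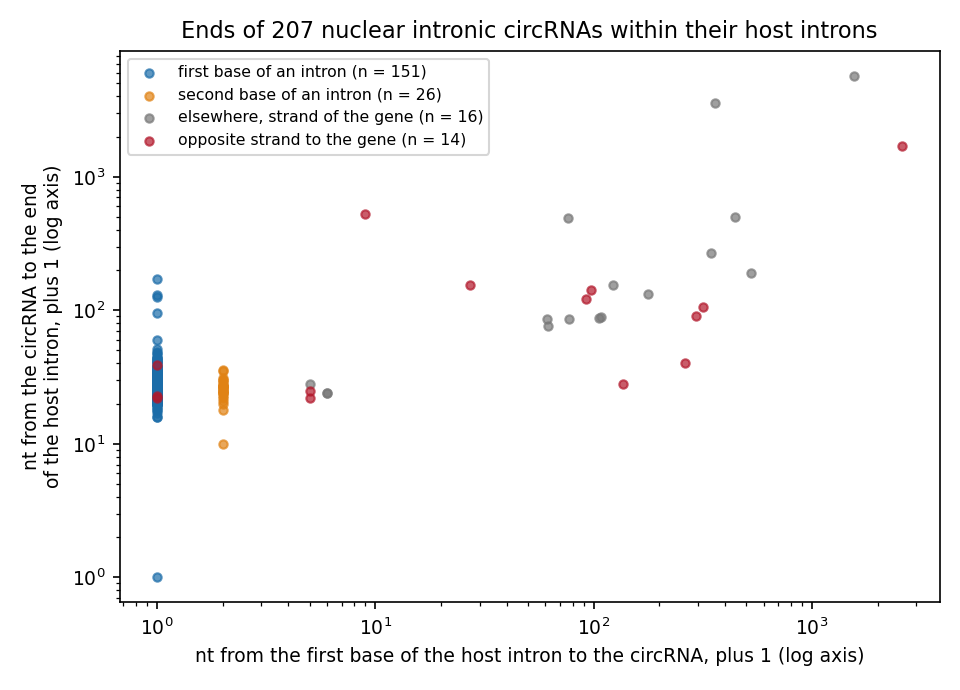
Each point is 1 of 207 intronic circRNAs, with the distance from the first base of the host intron to the circRNA on the horizontal axis and the distance from the circRNA to the end of the intron on the vertical axis, both in nt plus 1 on log axes and along the strand of the gene. The 151 and 26 members that start at the first or second intron base stand in 2 columns at the left, most of them between 15 and 50 nt from the end of the intron, while the other members are spread out, except 5 on the opposite strand and 3 more that lie within 5 nt of the first base.

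The 7 members outside the window of 15 to 50 nt included some of the more abundant ones. Ath_circ_FC1724 of AT2G47250 had 21 reads and left 129 of 423 nt outside, and Ath_circ_FC3817 of AT5G55670 had 18 reads and left 171 of 375 nt. Ath_circ_FC2903 of WRKY11, a transcription factor gene, had 6 reads and left 125 of 329 nt. Ath_circ_FC0566 of AT1G30470, with 2 reads, was the only member that spanned a whole intron, from the first to the last of 375 nt. These members were picked after their values had been seen.

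**Figure D2:**
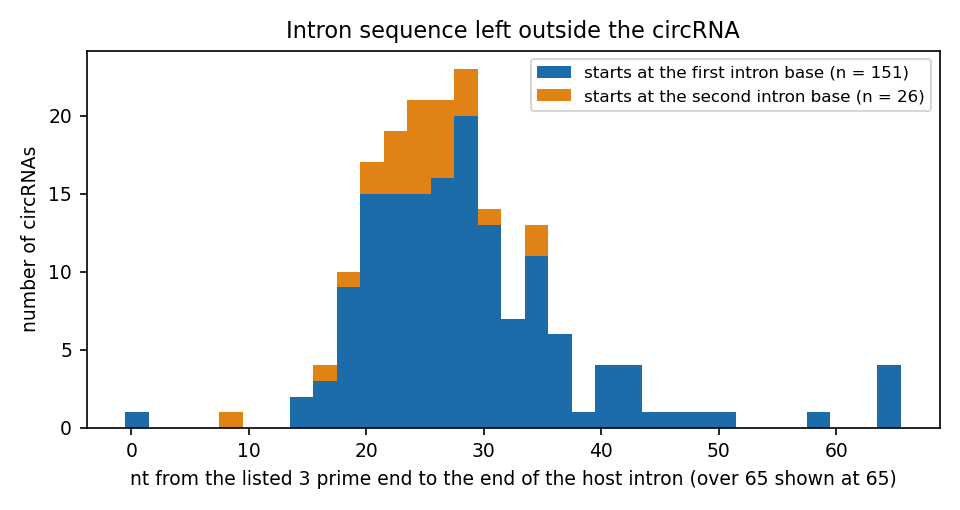
Number of circRNAs against the nt between the listed 3′ end and the end of the host intron, in bins of 2 nt, for the 151 circRNAs that start at the first intron base and the 26 that start at the second. Most values lie around the median of 27 nt, and 4 values over 65 nt are drawn at 65.

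An adenosine was frequent at or next to these ends. In the class that starts at the first intron base, the last base of the circRNA was A in 103 of 151 (68.2%) and the base 2 before it was T in 96 (63.6%). In the class that starts at the second base, the A stood 1 base earlier, as the second-last base in 25 of 26 (96.2%), with T 2 bases before it in 22 of 26 (84.6%) and T as the last base in 20 of 26 (76.9%). Annotated introns at least as long as the shortest member held 164094 GT in the same window of 15 to 50 nt before their ends, and of these GT 22.3% (22.1 to 22.5) directly followed an A and 26.4% had an A 2 bases before. The junctions above show both forms, with TTA before the junction in AT1G68490, AT1G61690 and MEE51 and with TAAT or TGAT in UBQ1 and CESA6.

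The branch point of introns is often written as CTNA, with the adenosine last. On the listed strand alone, CTNA lay within the last 5 bases of 67 of 177 members (37.9%, 31.0 to 45.2), and the shorter TNA, which is part of CTNA, in 137 (77.4%, 70.7 to 82.9). The 5 bases before each GT 15 to 50 nt from the end of annotated introns held CTNA in 3.87% and TNA in 28.4% of 164094 cases. The 5 bases ending 27 nt before the end of 68165 annotated introns held them in 6.48% and 34.6%. Both motifs were chosen after the end letters had been seen, and a match describes the letters and is not a mapped branch point.

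The same read can often be placed in more than 1 way, which bounds how exactly these ends are known. A member that starts with GT and stops before a GT fits its junction equally well when both ends are moved 2 bases downstream. Junctions of the first class could be moved by a median of 2 bases without changing a letter, by at least 2 in 148 of 151 and by up to 8. None of the 26 junctions of the second class could be moved, and exonic junctions could be moved by a median of 2. The placement with AG and GT beside the ends is the listed one.

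Each of the 207 members lay inside 1 annotated intron of its parent gene (98.2 to 100%), which checks the listed type and is no finding. Of these, 173 (83.6%) overlapped no annotated exon, and 11 were wholly exon in another transcript of the annotation. The introns that held the 177 members were long, with a median of 352 nt (321 to 371, range 122 to 860), against 102 nt for all annotated introns. Only 14.7% of annotated introns were at least as long as the lower quartile of these hosts, which was 282 nt. The shortest listed nuclear circRNA of any type spanned 95 bp, and the shortest outside the mixed list 124 bp. Both comparisons therefore include annotated introns too short to hold any listed circRNA. How much of the contrast in length comes from this lower limit was not tested.

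The members filled most of their introns. The span was a median of 91.9% of the host intron (91.4 to 92.7), and it rose with the length of the intron almost on a line (Pearson's r 0.988, Spearman's rho 0.975 over 177 introns, a description, since the span is a part of that length). The host was the first intron of its transcript for 58 of 177 members (32.8%), the second for 31 (17.5%) and the third for 19 (10.7%). It was the longest intron for 88 of the 168 in transcripts with more than 1 intron (52.4%, 44.9 to 59.8), and the median host transcript held 7 introns. These shares were not computed for annotated introns of like length, so no preference for a first or longest intron is read from them. The host lay in the coding region in 175 cases, in the 5′ UTR in 1 and in the 3′ UTR in 1.

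**Figure D3:**
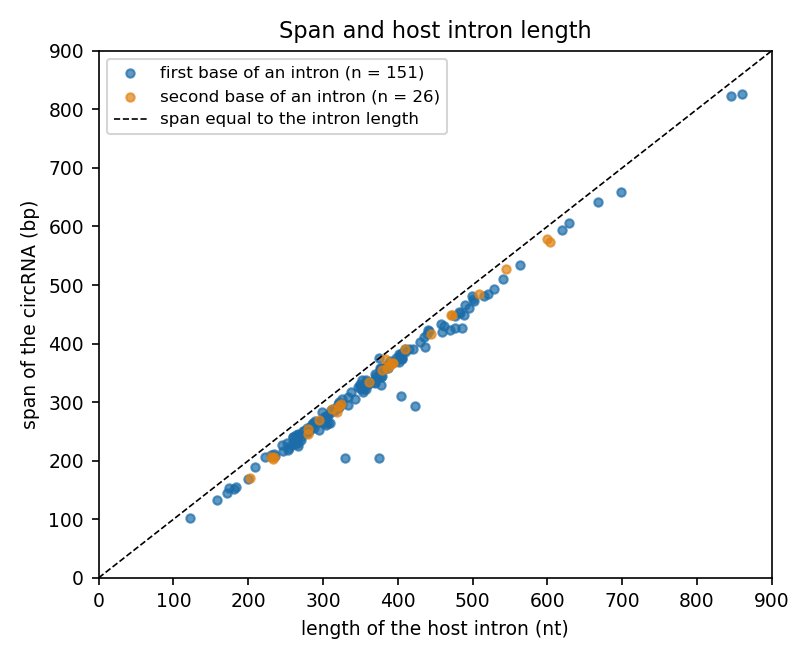
Span of the circRNA in bp against the length of its host intron in nt for the 151 circRNAs that start at the first intron base and the 26 that start at the second; the dashed line marks a span equal to the intron. The points run just under the line, with a median span of 91.9% of the intron.

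The intronic circRNAs were shorter than other nuclear circRNAs. Their span had a median of 310 bp (288 to 334, range 102 to 827), against 480 bp (467 to 495) in exonic and 688 bp (483 to 840) in intergenic circRNAs. Outside the mixed list the medians were 322 bp (295 to 338) for intronic, 566 bp (556 to 584) for exonic and 899 bp (711 to 1148) for intergenic circRNAs. By its listed type each intronic circRNA lies within an intron, which limits its span. These contrasts are therefore at least partly set by the choice of members and are given as a description. The longest were Ath_circ_FC2874 in AT4G29410 (ribosomal L28e family) with 827 bp and 3 reads, Ath_circ_FC1917 in SPY with 826 bp and 15 reads, and Ath_circ_FC3737 in NFU2, a NIFU-like protein, with 823 bp and 7 reads. The shortest was Ath_circ_FC4904 in AT1G56190, of the phosphoglycerate kinase family, with 102 bp in an intron of 122 nt and 9 reads. The next shortest were Ath_circ_FC4938, Ath_circ_FC4983, Ath_circ_FC5234 and Ath_circ_FC5238 with 113 to 133 bp. The next longest were Ath_circ_FC3595 with 676 bp and 4 reads and Ath_circ_FC3733 of the transcription factor gene WRKY48 with 658 bp and 2 reads.

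The A+T content of the members was close to that of annotated introns. Its median was 66.1% (65.6 to 66.7) in intronic circRNAs, against 58.9% (58.7 to 59.0) in exonic and 60.8% (59.4 to 61.6) in intergenic circRNAs. Annotated introns at least as long as the shortest member had a median of 67.1% (quartiles 64.8 and 69.8).

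The 207 members came from 198 parent genes, all matched to the reference by identifier, and 206 members came from protein-coding genes. The exception was Ath_circ_FC5455 in the non-coding gene AT2G24735. Of the 198 genes, 9 (4.55%, 2.41 to 8.41) had 2 members and none more, while 767 of 3122 parent genes of exonic circRNAs (24.6%, 23.1 to 26.1) had more than 1 exonic circRNA. These shares were not adjusted for the number of circRNAs of each type, 207 and 4418, so nothing is read from the contrast. An exonic circRNA was also listed for 73 of the 198 genes (36.9%, 30.5 to 43.8), and the share over all genes was not computed. Chromosomes 1 to 5 held 53, 42, 36, 27 and 49 members, which came to 1.46, 2.02, 1.35, 1.29 and 1.55 per 1000 annotated introns.

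In 4 of the 9 genes both members lay in the same intron, began at the same base and ended 7 to 16 nt apart. For AT1G71500, which encodes a Rieske iron-sulphur domain protein, the 2 junctions in intron 1 read as follows, again with the last 5 and first 6 bases in capitals.
Ath_circ_FC0953: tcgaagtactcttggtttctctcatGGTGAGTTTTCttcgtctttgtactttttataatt
Ath_circ_FC0952: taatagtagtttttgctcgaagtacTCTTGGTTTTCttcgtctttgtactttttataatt
Ath_circ_FC0953 (chr1:26936498-26936774, plus strand) had 23 reads and stopped 27 nt before the end of the intron, and Ath_circ_FC0952 (chr1:26936498-26936758, plus strand) had 10 reads and stopped 43 nt before it. In intron 3 of AT1G68490 the end 34 nt before the intron's end had 72 reads, in Ath_circ_FC0916, and the end 48 nt before it had 4, in Ath_circ_FC0915. In the single intron of PSAF, a subunit of photosystem I, the ends 27 and 34 nt before the intron's end had 26 and 2 reads, in Ath_circ_FC0587 and Ath_circ_FC0588. In intron 14 of GC1 (AT2G19950, a golgin) the ends 29 and 21 nt before the intron's end had 12 and 4 reads, in Ath_circ_FC1248 and Ath_circ_FC1247. In each of these 4 introns the end nearer to 27 nt had the more reads, a comparison made after the values had been seen. The 27 nt is the median over the 177 members, these included, so the comparison is not independent of it.

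The other 5 genes had members in different introns. ISA1, an isoamylase of starch synthesis, had Ath_circ_FC1595 in intron 11 with 26 reads and Ath_circ_FC1594 in intron 10 with 4. ARI5 of the RING/U-box family had 14 and 3 reads in introns 1 and 12, and AT3G23540, an alpha/beta-hydrolase, had 14 and 9 reads in introns 2 and 4. The calcium pumps ECA3 (4 and 5 reads in introns 13 and 17) and ACA1 (introns 1 and 2) had few. Of the members of ACA1, Ath_circ_FC0529 had 4 reads outside the mixed list and Ath_circ_FC5225 had 4 within it, 2 values that are not on 1 scale.

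The value listed for each of the 1217 circRNAs of the mixed list equals that sample's own count, without added reads of other samples. For the other circRNAs no label says which samples gave the value, so the 2 groups were kept apart. Outside the mixed list the 194 intronic circRNAs had a median of 6 reads (5 to 7, range 2 to 75), against 5 (5 to 5) in 3502 exonic and 6 (5 to 8) in 189 intergenic circRNAs. Inside it the 13 intronic circRNAs had a median of 4 reads (4 to 8), against 4 (4 to 4) in 916 exonic ones. Outside it only 2 reads supported 38 of 194 intronic circRNAs (19.6%, 14.6 to 25.7), against 780 of 3502 exonic ones (22.3%, 20.9 to 23.7), and these intervals overlap. Inside it none of the 13 intronic circRNAs had 2 reads, against 271 of 916 exonic ones (29.6%, 26.7 to 32.6). The 194 held 1831 reads, 4.66% of the 39268 listed for nuclear circRNAs outside the mixed list, and their 10 highest held 424 of the 1831 (23.2%). The 13 held 69 of the 6619 reads within it (1.04%). Span and reads had almost no relation outside the mixed list (Spearman's rho 0.00200, Pearson's r -0.0104 with log2 reads, a description over 194 members).

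**Figure D4:**
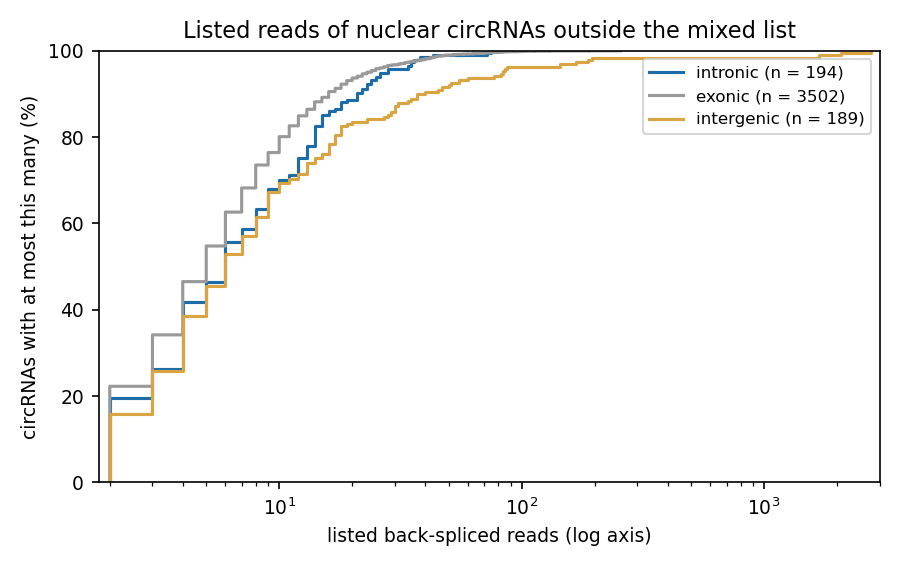
Percentage of circRNAs outside the mixed list with at most the number of listed back-spliced reads on the horizontal log axis, for 194 intronic, 3502 exonic and 189 intergenic nuclear circRNAs. The intronic line lies below the exonic line over most of its range, with medians of 6 and 5 reads, and the highest intronic value is 75.

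Of the 20 members with the most reads, 19 began at the first or second base of their intron (95%, 76.4 to 99.1), against 85.5% of all 207. None was in the mixed list, against 6.28% of all members, and this ranking joins values that are not on 1 scale. Ath_circ_FC2350 of UBQ1 had 75 reads and Ath_circ_FC0916 of AT1G68490 had 72, then Ath_circ_FC0849 had 43, Ath_circ_FC2541 of MEE51 had 38 and Ath_circ_FC3947 of CESA6 had 36. Ath_circ_FC1521 of AT2G36170, annotated as the 60S ribosomal protein L40-1, had 35 reads. Like the member of UBQ1 it lay in intron 3 of 4 and began at the second intron base, in an intron of 235 nt against 379 nt in UBQ1. Ath_circ_FC2541 of MEE51 and Ath_circ_FC0317 of AT1G12000, with 25 reads, came from 2 genes of the phosphofructokinase family, in introns 3 and 1.

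The remaining members of the 20 with the most reads came from genes of varied function. ACS, the acetyl-CoA synthetase gene, had 28 reads in Ath_circ_FC3585, AMY3, an alpha-amylase, 24 in Ath_circ_FC0927, and GLU2, a glutamate synthase, 22 in Ath_circ_FC1618. Ath_circ_FC3516 of AT5G25100, of the endomembrane protein 70 family, had 35 reads, and Ath_circ_FC3459 of AT5G22450 had 28. Ath_circ_FC1038 of AT1G76660, a hydroxyproline-rich glycoprotein, had 24, and Ath_circ_FC2847 of AT4G28030, an acyl-CoA N-acyltransferase, had 23. Ath_circ_FC2050 of AT3G17850, a protein kinase, had 22, and Ath_circ_FC1177 of VPS2.1, of the SNF7 family, had 21. The host intron was the first of the transcript in 9 of these 20.

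Both ends lay on annotated exon boundaries in 6 of 207 intronic circRNAs (2.90%, 1.34 to 6.18), against 2902 of 4418 exonic (65.7%, 64.3 to 67.1), 57 of 234 intergenic (24.4%) and 61.0% of all nuclear circRNAs. The paper describes exonic circRNAs as having both ends on known exon boundaries. In the annotation used here 1162 of the 4418 exonic circRNAs (26.3%) had no end on a boundary. The listed type still depends on where exons and introns lie. This contrast too is therefore largely set by the choice of members, and nothing is read from it. Another 2 intronic circRNAs had 1 end on a boundary, and 199 (96.1%) had none. These boundaries came from other transcripts that place an exon inside the intron. The junction of Ath_circ_FC1917, the highest of the 6 with 15 reads, joins such exon ends in intron 4 of SPY (AT3G11540), a repressor of gibberellin signalling, and is shown as the example of this class.
Ath_circ_FC1917: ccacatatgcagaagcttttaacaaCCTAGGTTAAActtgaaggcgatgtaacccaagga
It lies at chr3:3634288-3635113 on the plus strand, 524 nt from the start and 188 nt from the end of an intron of 1538 nt, and 48.4% of it is exon in another transcript. The next were Ath_circ_FC2869 of emb2726, an elongation factor Ts, with 13 reads and Ath_circ_FC2979 of CCoAOMT1, a methyltransferase of lignin synthesis, with 7, both wholly exon in another transcript. The 2 with 1 end on a boundary were Ath_circ_FC2665 of AT4G15955, an alpha/beta-hydrolase, with 17 reads, and Ath_circ_FC3447 of RHF2A, a RING-H2 protein, with 9. All 6 with both ends on boundaries were among the 16 that began elsewhere in the intron.

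Intronic circRNAs were listed on the strand of their gene in 193 of 207 cases (93.2%, 89.0 to 95.9). For exonic circRNAs with a matched gene it was 3804 of 4405 (86.4%, 85.3 to 87.3), a difference of 6.88 percentage points (2.50 to 9.77). The intronic share was 76.9% (49.7 to 91.8) in the mixed list and 94.3% (90.1 to 96.8) outside it. The exonic share was not split by list, and the types differ in how many of them are in the mixed list. How much of the difference comes from this was not tested. Among the 14 on the opposite strand, the highest was Ath_circ_FC1197 in intron 3 of AT2G13840 with 34 reads, at chr2:5789323-5789657 on the plus strand, while the gene lies on the minus strand. Its junction is shown on the listed strand because the letters of the others stand there reversed: the AC before the junction reads GT on the strand of the gene, and the TCAG after it reads CTGA.
Ath_circ_FC1197: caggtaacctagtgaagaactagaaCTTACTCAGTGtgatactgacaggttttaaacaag
Read on the strand of the gene, this circRNA covered the intron from its first base to 38 nt before its end. The same position from the first intron base was found for Ath_circ_FC1711 of SDH8, a succinate dehydrogenase subunit, with 14 reads and 21 nt left, and for Ath_circ_FC0577 of AT1G30580 with 2 reads and 22 nt left. Ath_circ_FC0501 and Ath_circ_FC3595 began 4 nt from the first base. The other 9 of the 14 lay further inside. A wrong strand label and transcription from the other strand cannot be told apart with 1 listed strand for each circRNA.

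The list of the mixed sample held 13 of 207 intronic circRNAs (6.28%, 3.71 to 10.4), against 916 of 4418 exonic (20.7%, 19.6 to 22.0) and 45 of 234 intergenic ones (19.2%, 14.7 to 24.8). The other 194 (93.7%, 89.6 to 96.3) were outside that list, as were 3885 of all 4859 nuclear circRNAs (80.0%). The difference was -14.5 percentage points from exonic (Newcombe 95% interval -17.3 to -10.1) and -13.0 from intergenic circRNAs (-19.1 to -6.79). The share in the mixed list was highest under 200 bp in every type, so it was set out by span, in classes chosen after the spans had been seen. Under 200 bp it was 11 of 19 in intronic (57.9%) and 539 of 675 in exonic circRNAs (79.9%), a difference of -22.0 points (-43.8 to -2.73). From 200 to under 300 bp it was 1 of 79 (1.27%) in intronic and 29.1% in exonic circRNAs, a difference of -27.9 points (-31.8 to -21.3). From 300 to under 400 bp it was 0 of 63 in intronic, with a Wilson upper limit of 5.75% (3 counts of 63, the limit taken for a count of 0, are 4.76%), and 14.2% in exonic circRNAs, a difference of -14.2 points (-17.4 to -7.88). From 400 to under 1000 bp it was 1 of 46 (2.17%) in intronic and 4.41% in exonic circRNAs, and this difference of -2.24 points (-4.30 to 6.96) was within counting error. Set against intergenic circRNAs, the difference was within counting error under 200 bp (-8.14 points, -32.5 to 15.1) and from 400 to under 1000 bp (-0.207, -10.3 to 9.16). It was -10.5 points (-25.4 to -1.49) from 200 to under 300 bp and -18.2 (-47.7 to -3.93) from 300 to under 400 bp.

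**Figure D5:**
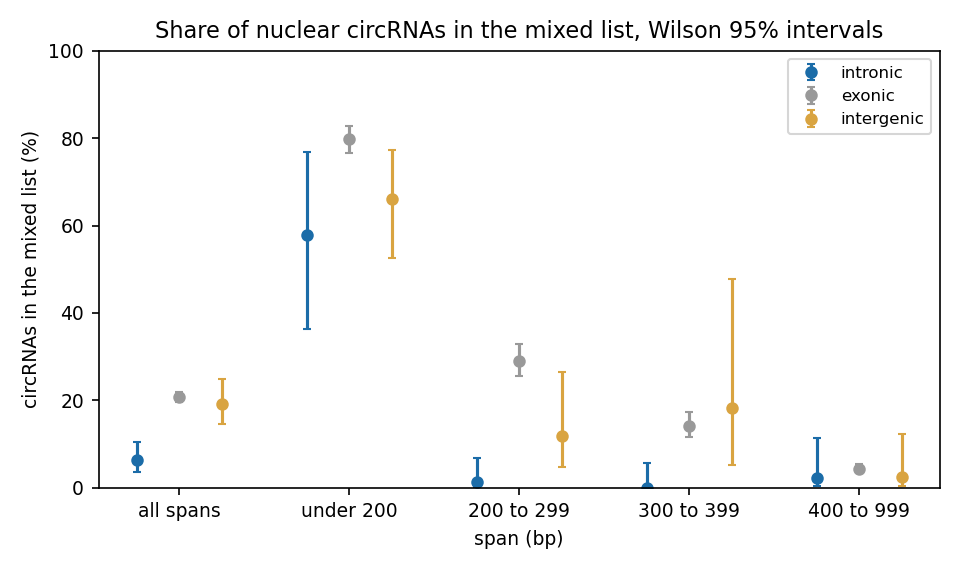
Percentage of nuclear circRNAs found in the mixed list, over all spans and by span in bp, for intronic, exonic and intergenic circRNAs with Wilson 95% intervals as bars. Intronic circRNAs lie at 6.28% over all spans against 20.7% for exonic ones, and at 1.27% against 29.1% from 200 to under 300 bp.

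The 13 members in the mixed list were short and had few reads. Their span had a median of 152 bp (127 to 190), against 322 bp (295 to 338) for the 194 outside it, and their counts ran from 3 to 9. They included 7 that began at the first intron base, 3 that began elsewhere and 3 on the opposite strand, so 7 of 177 (3.95%, 1.93 to 7.94) of the members at a first or second intron base were in the mixed list. The host intron was over 200 nt long in 2 of these 7 and in 168 of the 170 outside the mixed list. The highest were Ath_circ_FC4904 of AT1G56190 with 9 reads, Ath_circ_FC4925 of HAB2, a gene named for its homology to ABI2, with 8, Ath_circ_FC4938 of AT2G05350 with 8 and Ath_circ_FC4983 of AT2G31810, a small subunit of acetolactate synthase, with 7. Ath_circ_FC5085 of PAB2, a poly(A) binding protein, had 6. Another 7 had 4 reads each, those of ACA1, AT1G58602, CP5, AT1G66510, CKB4 (a casein kinase subunit), UBA 2 and MS3, and Ath_circ_FC5455 had 3. By the study's methods the mixed sample also differed from the 13 others in sequencing instrument, read length and depth, besides its pooled stages, and the part of each in these shares cannot be told apart.

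The sequence across each junction was also searched in the reference without a junction. Of 207 sequences of 60 bases, 1 matched the genome with at most 3 differing bases, that of Ath_circ_FC0654 of AT1G44000 with 4 reads and 1 difference. None of the other 206 matched the genome or the annotated transcripts within that limit.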

How the data were processed

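Total RNA of 14 samples was depleted of ribosomal RNA and treated with RNase R, and libraries were sequenced on Illumina instruments, which differed between the mixed sample and the 13 others. The authors aligned the reads to TAIR10 (TopHat2, Bowtie2 2.0.5), called circRNAs with find_circ and kept those with at least 2 back-spliced reads. The deposited list of all samples holds 1 whole-number score per circRNA, whose heading speaks of a mean of junction read counts. For the 1217 circRNAs of the mixed sample this score is that sample's count, and here it was treated as a read number. The count of back-spliced reads in the mixed list was deposited without normalization, and the depth-scaled signal deposited beside it was not used.

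Listed starts count from 0, as the lengths of all 5861 circRNAs show, and 1 was added to them. Introns, exons and gene strands were those of the RefSeq annotation of TAIR10.1, whose nuclear sequence is that of TAIR10. The host intron was the parent gene's intron that contains the circRNA and begins nearest to it. RefSeq gave a symbol for 93 of 198 parent genes, and the others are named by identifier with the annotated product. Shares have Wilson, differences Newcombe and medians exact order-statistic 95% intervals, and no test over circRNAs was made, since each condition had 1 library. Junction sequences of 60 bases were searched with blastn 2.17.0. Named members were the 20 with the most reads, the 5 longest and 5 shortest, the 10 highest in the mixed list, and the 3 highest of each class of ends and strand. Ties were broken by name. The others, among them the members of the 9 genes with 2, Ath_circ_FC0501, Ath_circ_FC0577, Ath_circ_FC0654, Ath_circ_FC5340, Ath_circ_FC5352 and Ath_circ_FC5455, were picked after their values had been seen. The members and lists were chosen with earlier results of these data known. The calculations were tested on simulated data and used Python 3.11.15, numpy 2.4.6, pandas 2.3.3, scipy 1.17.1 and matplotlib 3.10.9.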

Additional observations from a re-analysis of the deposited data

How the results depend on the processing

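The 11 results were recomputed under 87 alternatives, and 75 stayed within the interval of the reported value (for the number of members, within 1.5 times). With at least 5 reads, 118 members of 116 genes were left, their median was 10 reads and 1.72% of the genes had more than 1 member. In the mixed list alone there were 13 members, with a median span of 152 bp, and 76.9% were on the strand of the gene. Of these 13, 0% had both ends on exon boundaries, 0% shared an end with another circRNA and 0% came from a gene with more than 1 member in that list. Of the same 13, 53.8% began at the first or second intron base, against 87.6% of the 194 outside the list, and 72.9% of all members did when the first base alone was counted. The share in the mixed list was 1.06% of the 188 members of at least 200 bp, so it rests mostly on the 11 of 19 shorter ones. The alternatives for the first or second intron base and the last one by span were chosen after seeing the data. The other settings (at least 3 reads, 1 member per gene, tolerances of 2 and 5 bp, other sets of exon boundaries or introns, geometric means) moved none of the results they applied to beyond these limits. Keeping AT1G15405 in changed nothing, since it held 0 members. A limit of 10000 bp removed no member, since the longest spanned 827 bp. The shares inside 1 intron and with AG and GT beside the ends were set by the listed type and the calling. Such alternatives could not move a result but are counted among the 75, so that count overstates how firm the results are.

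No paired analysis was possible because each condition had 1 library. With 2 to 75 reads for each member, shares and medians over many members are firmer than any single read number, and reads in and out of the mixed list are not on 1 scale.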

Other observations

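Some circRNAs listed as another type had the ends of the intronic ones. Among nuclear circRNAs that began at the first base of an annotated intron, 18 were listed as exonic and 6 as intergenic, and 14 and 6 of these ended 15 to 50 nt before the end of the intron. The highest was Ath_circ_FC0463, listed as intergenic, with 60 reads, a span of 292 bp and 32 nt left to the end of the intron. These circRNAs were looked for after the ends of the intronic ones had been seen.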
